A study of Homo sapiens with 26 samples.

Results

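The genes described here are the 307 autosomal protein-coding genes whose annotated body spans 500 kb or more, out of 19229 autosomal protein-coding genes in GENCODE v44lift37 on the hg19 build. Genes whose symbols begin with COL, LAM, HOX or FOX were left out, which removed 3 genes of this length, FOXP1, LAMA2 and FOXP2. The rule went by symbol only, so 5 genes known only by an Ensembl identifier were kept wherever they lay. Their bodies can overlap those of genes left out. The series mapped tagged transcription factors on chromatin by HALO-tag ChIP-seq in BJ fibroblasts, a human foreskin cell line, 48 hours after ectopic expression began. There were 5 constructs, named FOXA1, FOXA1dbd, FOXA1nhaa, FOXA1rraa and HNF4A in the labels, each with 2 ChIP and 2 input libraries. All groups share the cell line, the antibody and the expression time, and the labels do not spell out what the 3 variant names change. The factors were placed in a fibroblast by ectopic expression, so the values describe binding there and not in a tissue where the factors are native. Each construct has 1 full peak list, and FOXA1 also has a down-sampled one, whose 37683 autosomal rows are all rows of the full list and which gave ratios of 0.873 to all autosomes and 0.561 to other gene bodies. No construct therefore has a replicate list, no difference was tested, and the 95% intervals given here cover counting error only. Sequencing depth is unknown. The other 6 samples of the series, which carry tagged histone H2B, were not analysed here.

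The lists are not independent of each other. Of the 5864 FOXA1rraa rows in very long genes, 3307 (56.4%) had the same start and end as a FOXA1nhaa row and 1970 (33.6%) as a FOXA1 row, which left 587 rows that no other list held. Of the 2328 FOXA1dbd rows, 247 (10.6%) were FOXA1 rows, and HNF4A shared none. The FOXA1 list also gives some peaks as several rows, so its 12861 rows in these genes carry 12303 peak names. Values of FOXA1rraa are therefore given beside the others and are no separate observation.

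FOXA1 is a forkhead protein that acts as a pioneer factor: it can bind its DNA motif on nucleosomes in closed chromatin, and it is known for opening enhancers in liver, breast and prostate. HNF4A is a nuclear receptor that regulates genes of liver and gut epithelium. Very long genes owe their length to introns, and many encode adhesion molecules, receptors and channels of neurons, some lie in common fragile sites where DNA breaks under replication stress, and others are active in nearly every cell. A long silent gene body is thus a large block of intronic sequence in which motifs are plentiful, while a long active one can hold many intronic enhancers.

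The sequences printed next are reference bases of the GRCh37 genome, 61 bases around a core inside a high-scoring peak of a very long gene. They are not always from the top peak: the printed FOXA1dbd peak scored 300, and the highest-scoring one, in STK3, scored 696. Capitals mark the forkhead core, TGTTTAC or TATTTAC on either strand, or for HNF4A the core CAAAGTCCA. The sites were chosen for holding a core, so they do not show what bound sites in general look like. In very long genes 18.0% of FOXA1 peaks held a forkhead core within their central 200 bp. The HNF4 core was in 1.10% of HNF4A peaks there.
FOXA1, SH3RF3, chr2:110080897-110080957, minus strand: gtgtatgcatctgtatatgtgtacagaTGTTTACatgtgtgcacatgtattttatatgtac
FOXA1dbd, NBEA, chr13:36098905-36098965, plus strand: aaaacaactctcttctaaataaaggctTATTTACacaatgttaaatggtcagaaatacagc
FOXA1nhaa, LRMDA, chr10:77499641-77499701, plus strand: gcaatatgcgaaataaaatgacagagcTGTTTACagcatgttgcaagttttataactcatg
FOXA1rraa, GPC6, chr13:94829461-94829521, minus strand: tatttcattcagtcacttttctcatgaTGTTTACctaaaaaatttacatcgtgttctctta
HNF4A, RUNX1, chr21:36675429-36675489, minus strand: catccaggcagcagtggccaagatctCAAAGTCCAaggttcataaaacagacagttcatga
The FOXA1, FOXA1dbd and FOXA1nhaa peaks around the first 3 of these each overlapped a peak in all 3 other FOXA1 construct lists, and the HNF4A peak overlapped none. All of them lay outside exons and more than 1 kb from any annotated start, between 308 and 950 kb into the gene. A second pair comes from genes with no peak in any list and shows that the same core occurs where no FOXA1 construct was called. The rule for this pair, the core nearest the middle of the 2 longest such genes, was chosen after values were seen.
TMEM132D, chr12:129971250-129971310, plus strand: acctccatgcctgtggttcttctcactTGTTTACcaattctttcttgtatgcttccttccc
GABRG3, chr15:27501773-27501833, plus strand: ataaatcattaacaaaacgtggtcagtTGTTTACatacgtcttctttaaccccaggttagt

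The 307 bodies ran from 501 to 2474 kb with a median of 726 kb, and 67 of them reached 1 Mb. Together they covered 254.6 Mb of known sequence, or 9.48% of the autosomes. Exons of any gene took 2.26% of that sequence against 11.1% in the other protein-coding bodies, and its GC content was 38.8% against 42.7%. Chromosome 3 held 36 of the genes, the highest number of any autosome, and chromosome 19 held none. Only 6 of the genes overlapped another of them, ARHGAP24 and MAPK10 among them.

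As a class, very long genes were sparsely bound, and most sparsely by HNF4A. The FOXA1 list placed 12861 of 153247 autosomal peaks in them (8.39%, Wilson interval 8.25 to 8.53), a density of 50.5 peaks per Mb (exact Poisson interval 49.7 to 51.4). That was 0.885 times the autosomal density and 0.565 times the density in other protein-coding bodies. FOXA1nhaa placed 9416 peaks there, or 37.0 per Mb, 0.948 and 0.628 times those references. FOXA1dbd placed 2328 peaks, or 9.15 per Mb, at 0.855 and 0.587 times. FOXA1rraa stood at 23.04 per Mb, 0.878 and 0.549 times, and without the rows shared with another list its second ratio was 0.721. The HNF4A list placed 1458 of 37867 peaks (3.85%) in these genes, 5.73 per Mb, only 0.406 times the autosomal and 0.234 times the genic density. The deficit against all autosomes depends on the length limit: over genes of 300 kb or more the ratio was 1.10 for FOXA1, 1.07 for FOXA1dbd, 1.16 for FOXA1nhaa and 1.13 for FOXA1rraa, while HNF4A stayed at 0.534. It also turned for FOXA1nhaa, to 1.02, when annotated length replaced known bases. The deficit against other gene bodies kept its direction in each of these settings.

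FOXA1 density rose and then fell with gene length, whereas HNF4A density fell throughout. Counting peak centres once, in the longest gene that holds them, FOXA1 stood at 36.3 per Mb in genes under 10 kb, 71.3 at 10 to 50 kb, 93.9 at 50 to 100 kb, 102 at 100 to 250 kb, 83.6 at 250 to 500 kb and 50.5 in the very long genes. Sequence outside protein-coding bodies had 36.1 per Mb, so very long genes lay nearer to that sequence than to genes of 100 to 250 kb. HNF4A went from 81.4 per Mb in the shortest genes through 19.0 at 100 to 250 kb and 10.9 at 250 to 500 kb to 5.67 in the very long ones, below the 9.26 outside protein-coding bodies. Median deposited scores differed little between peaks in very long genes and peaks elsewhere in each list, and so did median widths except for HNF4A. The median deposited score of FOXA1 peaks was 121 in very long genes and 124 elsewhere, with median widths of 303 and 301 bp, and HNF4A had 96 against 99 and 266 against 289 bp.

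**Figure D1:**
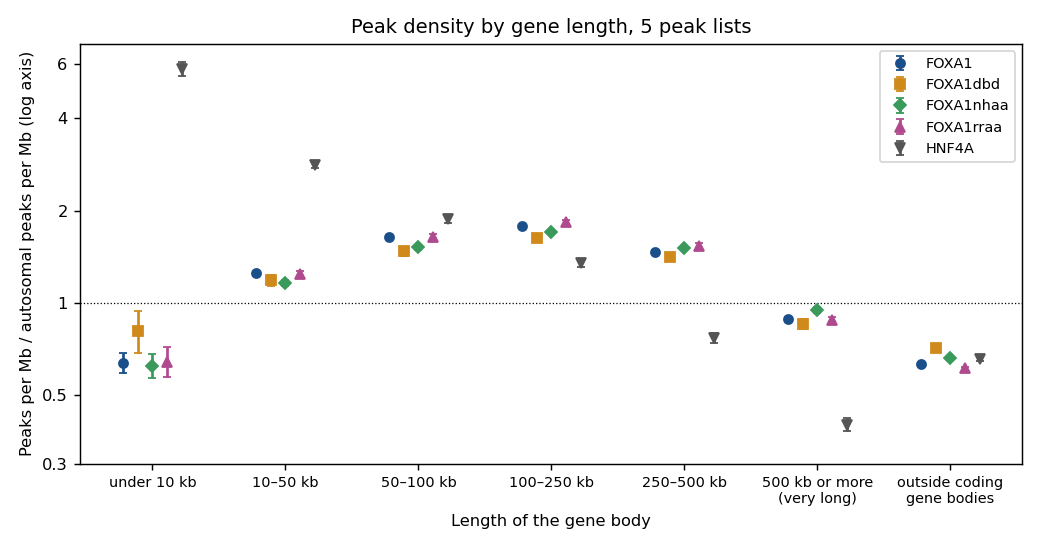
Peak density of each list by the length of the gene body, as a ratio to the list's autosomal density on a log axis, with exact 95% Poisson intervals for counting error. The 4 FOXA1 construct lists are highest at 100 to 250 kb and fall below 1 at 500 kb or more, while HNF4A falls from the shortest genes to the very long ones.

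In pooled density the fall went on within the class. FOXA1 density over the pooled genes was 61.2 per Mb in the 166 genes of 500 to 750 kb and 58.4 in the 74 of 750 kb to 1 Mb. It was 41.7 in the 51 of 1 to 1.5 Mb and 21.2 in the 16 of 1.5 Mb or more. Below 1 Mb both pooled values thus exceeded the autosomal 57.1, and from 1 Mb on both fell short of it. The median gene was below 57.1 at every step, at 49.6, 36.1, 11.5 and 12.3 FOXA1 peaks per Mb in the same order. The crossing at 1 Mb and the fall over the last step thus hold for pooled density only. Of the 16 longest genes, 11 (68.8%) had at most 0.5 times the autosomal FOXA1 density and none reached 2 times. Among all 307 genes these shares were 43.3% and 18.2%. HNF4A fell over the same 4 steps from 8.29 to 6.11, 3.45 and 1.38 per Mb, and all 16 of the longest genes were 2-fold or more below its autosomal density, against 65.1% of all 307. FOXA1nhaa went from 44.8 to 18.0 per Mb and FOXA1dbd from 11.4 to 4.26. The genes on either side of the 500 kb limit show how far single genes scatter around these averages. Just inside it, ANO5, a membrane protein of the anoctamin family, had 0 FOXA1 peaks per Mb, SPOCK3, a proteoglycan, had 3.99, and KCNAB1, a potassium channel subunit, had 71.8. Just outside it, DIAPH3, which nucleates actin filaments, had 142 FOXA1 peaks per Mb, the calcium release channel gene ITPR2 had 121, and the calcium channel subunit gene CACNA2D1 had 197.

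Between single genes the densities differed far more than between length classes. FOXA1 ranged from 0 to 356 peaks per Mb, with a median of 35.6 and quartiles at 6.32 and 88.5, against an autosomal density of 57.1. In 133 genes (43.3%) the FOXA1 density was at least 2-fold below the autosomal one, compared with 25% of all autosomal protein-coding genes of 100 kb or more and 26.1% of those of 250 to 500 kb. In 56 genes (18.2%) it was at least 2-fold above, compared with 34% and 30.9%. No FOXA1 peak at all lay in 41 genes (13.4%), compared with 8.01% and 7.44%, although a shorter gene has less room to hold one. The peaks were concentrated: 54 of the 307 genes held 50% of them, while the 83 genes with at most 5 FOXA1 peaks spanned 74.3 Mb.

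In the other 4 lists too a larger share of very long genes than of genes of either reference length was 2-fold below and a smaller share 2-fold above, whereas the share without a peak was larger than in both references for FOXA1rraa and HNF4A and smaller for FOXA1nhaa and FOXA1dbd. For FOXA1nhaa 115 genes (37.5%) were at least 2-fold below the autosomal density (against 24% of genes of 100 kb or more and 22.2% of those of 250 to 500 kb), 59 (19.2%) were 2-fold above (against 31.8% and 30.1%), and 8 (2.61%) had no peak (against 6.5% and 4.92%). FOXA1dbd had 127, or 41.4%, below (against 29.7% and 29.5%), 41, or 13.4%, above (against 30.2% and 27.4%) and 36, or 11.7%, without a peak (against 21.7% and 13.9%). FOXA1rraa had 132, or 43.0%, below (against 26.9% and 27.2%), 54, or 17.6%, above (against 33.8% and 31.3%) and 54, or 17.6%, without a peak (against 12.5% and 11%). HNF4A had 200, or 65.1%, below (against 35.4% and 47.2%), 13, or 4.23%, above (against 20.8% and 8.29%) and 89, or 29%, without a peak (against 20.6% and 19%). In 107 genes (34.9%) FOXA1, FOXA1dbd and FOXA1nhaa were all at least 2-fold below their autosomal densities, compared with 17.3% of genes of 100 kb or more and 19.5% of those of 250 to 500 kb. In 31 genes (10.1%) all 3 were 2-fold above, compared with 20.2% and 19%.

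**Figure D2:**
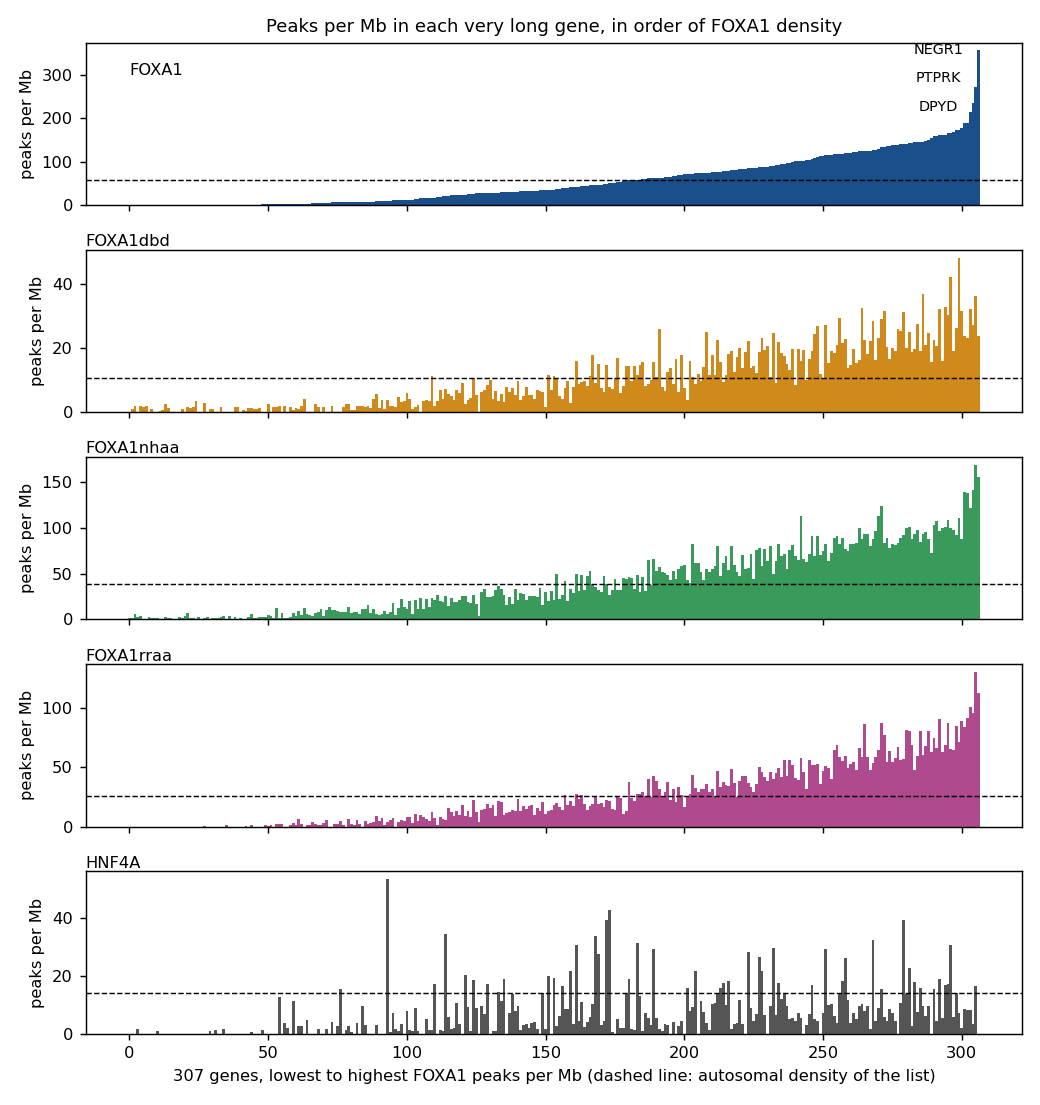
Peaks per Mb of each list in each of the 307 very long genes, ordered by FOXA1 density from lowest to highest, with a dashed line at the list's autosomal density. The 3 other FOXA1 construct lists follow the FOXA1 order closely, while HNF4A, with its highest bar at 53.3 per Mb, does so loosely.

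Of the 56 genes 2-fold above the autosomal FOXA1 density, 9 were in the list of cytoskeleton, polarity and junction scaffolds and 30 in none of the 11 lists. Among all 307 very long genes, 24 were in the scaffold list and 172 in none. NEGR1 (chr1:71861626-72748222), an adhesion molecule anchored in the membrane and known from neurite growth, held 316 FOXA1, 21 FOXA1dbd, 138 FOXA1nhaa, 100 FOXA1rraa and 0 HNF4A peaks. Its FOXA1 density of 356 per Mb (318 to 398) was the highest of the class, the longest stretch without a FOXA1 peak was 15.8 kb, and its FOXA1 rows carried 283 peak names. PTPRK (chr6:128289930-128841761), a receptor tyrosine phosphatase of cell contacts, held 150, 20, 93, 72 and 9 peaks in the same order, 272 FOXA1 peaks per Mb (230 to 319). DPYD (chr1:97543299-98460556) encodes the enzyme that begins pyrimidine breakdown, and it held 215, 25, 129, 88 and 3 peaks, 234 FOXA1 peaks per Mb. VPS13B, a lipid transfer protein of the Golgi, followed with 215 FOXA1 peaks per Mb, and NBEA, a vesicle trafficking protein, with 189. In all 5 genes the FOXA1, FOXA1nhaa, FOXA1rraa and FOXA1dbd densities were more than 2-fold above their autosomal values. HNF4A did not share this: only PTPRK, at 16.3 per Mb, exceeded the HNF4A autosomal density of 14.1. FOXA1dbd put its highest densities in ADK, which encodes adenosine kinase (48.3 per Mb), DLC1, a GTPase-activating protein (42.2), and SLC8A1, a sodium-calcium exchanger (37.0). These 3 also had 146 to 174 FOXA1 peaks per Mb.

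At the other end stood several of the longest human genes. CSMD1 (chr8:2792875-4852494), a membrane protein with complement control domains, spans 2060 kb and held 0 FOXA1, 1 FOXA1dbd, 1 FOXA1nhaa, 0 FOXA1rraa and 0 HNF4A peaks. CNTNAP2 (chr7:145813094-148118090), a neurexin-like protein of the axon, held 1, 1, 1, 1 and 0 peaks in 2305 kb, and 2292 kb of it ran without a FOXA1 peak. RBFOX1 (chr16:5289803-7763342), an RNA-binding splicing regulator and the longest of the class at 2474 kb, held 1, 2, 1, 0 and 0. PTPRD (chr9:8314246-10613002), a receptor phosphatase of synapses, held 1, 3, 7, 0 and 0 in 2299 kb. Other genes above 2 Mb held more peaks. DLG2, a synaptic scaffold of 2173 kb, held 45 FOXA1 peaks (20.7 per Mb), although 736 kb of it had none, and MACROD2, an ADP-ribose hydrolase of 2058 kb, held 166, or 80.7 per Mb.

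The 41 genes without a FOXA1 peak also had few peaks in the other lists. They were chosen on the FOXA1 list, so their FOXA1 value is no finding, and the exact Poisson limit on it was 0.0969 per Mb over 38.1 Mb. The choice also lowers the lists that overlap FOXA1. In all very long genes only 5.46% of FOXA1dbd, 14.2% of FOXA1rraa and 45.9% of FOXA1nhaa peaks lay outside FOXA1 peaks. For HNF4A the share was 89.2%. Low values of the FOXA1 variants in the 41 genes therefore follow in part from the choice. FOXA1nhaa had 64 peaks in them, 1.68 per Mb, or 0.0431 times its autosomal density, spread over 33 of the genes with at most 4 in any one. FOXA1dbd had 32 peaks, 0.841 per Mb and 0.0786 times its autosomal density, in 21 genes, with at most 5, in PCDH15, a protocadherin of the inner ear and retina. FOXA1rraa had 2, 1 each in PCDH15 and SOX5. HNF4A had 5, 1 each in ATP8A2, CNTNAP5, PTPRN2, RYR2 and SORCS3, and 0.00931 times its autosomal density. No gene of the 41 had an HNF4A peak within 1 kb of one of its starts, whereas 46 of the 56 genes with 2-fold higher FOXA1 density did (82.1%), against 118 of all 307 (38.4%). Only 3 genes had no peak in any list: GABRG3, a GABA receptor subunit, TMEM132D, a transmembrane protein, and a gene known only by an Ensembl identifier. The 41 genes include the adhesion molecules CNTN4, CNTN5, CADM2 and CDH12, the guidance receptors DCC and UNC5D, the glutamate receptors GRM7 and GRM8, and the channel partners DPP6 and DPP10, and also ANO5, the sarcoglycan gene SGCZ, SOX5 and NELL1, all chosen as examples after their values were seen. Expression of the genes was not measured in the files used here, so whether they are silent in these cells was not tested.

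Grouped by what their products do, 135 of the 307 genes fell into 11 lists, which were drawn up with earlier results of these data known and are described by counts only. The 6 neurexins, contactins and contactin-associated proteins, which link neurons to each other and to glia, were all at least 2-fold below the autosomal FOXA1 density, against 43.3% of all very long genes. NRXN3 was highest at 23.6 per Mb, CNTNAP2 had 0.434, and CNTN4, CNTN5 and CNTNAP5 had none. The median length of these 6 genes was 1323 kb, against 726 kb for all 307. It was 1104 kb for the cadherins and 1214 kb for the teneurin list given below. Of the 67 genes of 1 Mb or more, 59.7% were 2-fold below, and the part of length in the family values was not tested. Of the 6 cadherins and protocadherins, which join cells, 5 were 2-fold below, and the exception was CDH13 at 40.0 per Mb. Among 8 glutamate and GABA receptor genes 6 were 2-fold below and held 0 or 1 FOXA1 peak each. The kainate receptor gene GRIK2 stood apart from them with 160 per Mb from 179 peaks, and GRM5, a metabotropic receptor, had 74.8. Of 14 ion channel and auxiliary subunit genes 6 were below (42.9%) and 1 was above (7.14%), the potassium channel gene KCNQ5 at 116. Of all very long genes 43.3% were below and 18.2% above. Teneurins, CSMD genes and LRP1B, large surface proteins, had 3 of 7 below (42.9%) and none above, with LRP1B highest at 51.6 per Mb. The shares below in the channel list and in this list were thus near that of all very long genes.

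The 24 scaffold genes of the cytoskeleton, polarity and junctions had a median of 82.2 FOXA1 peaks per Mb, compared with 35.6 over all very long genes, with 9 at least 2-fold above (37.5%) and 5 below (20.8%), beside 18.2% and 43.3% of all very long genes and 34% and 25% of genes of 100 kb or more. UTRN, which ties actin to the membrane, had 173 per Mb, the polarity protein gene PARD3 159, the focal adhesion gene LPP 141 and the nuclear envelope gene SYNE1 134. SGCZ, a sarcoglycan, had no FOXA1 peak. Among 22 genes for kinases, phosphodiesterases and growth factor signalling the median was 55.3, 4 were above (18.2%) and 7 below (31.8%), beside 18.2% and 43.3% of all very long genes, from STK3, a kinase of the Hippo pathway, at 145 to PDE10A, a phosphodiesterase of striatal neurons, at 0. The 22 transcription and chromatin regulators had a median of 49.7, with 5 above (22.7%) and 8 below (36.4%). SUPT3H, a subunit of the SAGA complex, had 155, the zinc finger repressor gene ZBTB20 had 143 and the histone deacetylase gene HDAC9 had 128, while SOX5 had none.

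Of 16 genes of large common fragile sites 3 (18.8%) were at least 2-fold above the autosomal FOXA1 density, DPYD, NBEA and IMMP2L, a mitochondrial peptidase gene with 130 per Mb, and 8 (50%) were below, beside 18.2% and 43.3% of all very long genes. WWOX, an oxidoreductase with WW domains, had 2.70 and CNTNAP2 had 0.434. The median of the list was 34.7 per Mb, near the 35.6 of all very long genes.

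**Figure D3:**
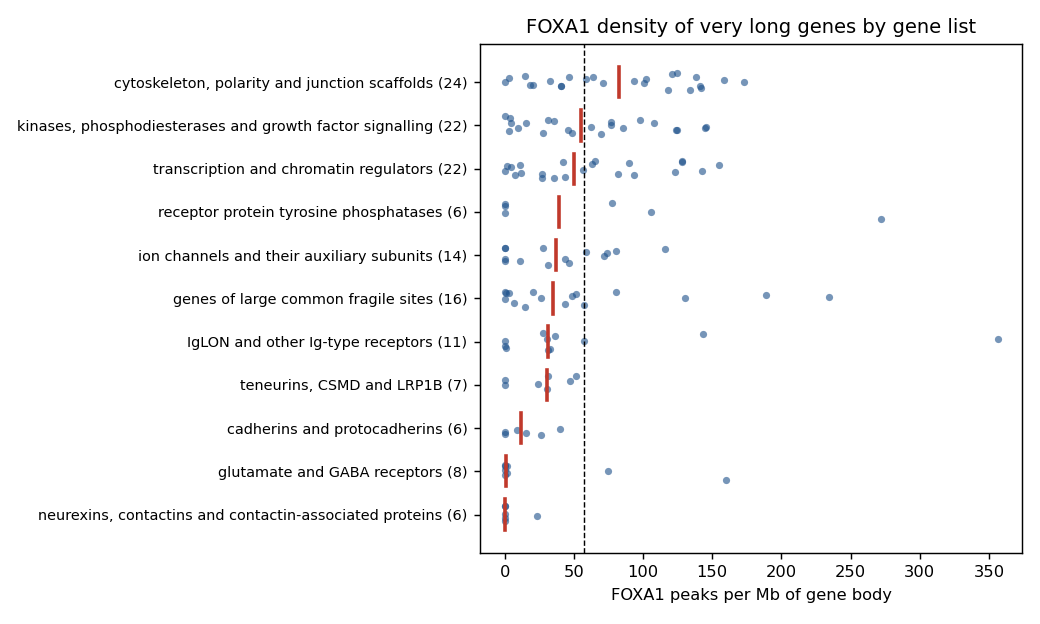
FOXA1 peaks per Mb of each very long gene in 11 gene lists (number of genes in brackets), with a red bar at the list's median and a dashed line at the autosomal density of 57.1. The cytoskeleton, polarity and junction scaffolds have the highest median (82.2) and the neurexins and contactins the lowest (0).

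Some related genes lay far apart in density and others close together. The genes in this paragraph were picked after their values were seen, so they describe single genes only. Of the receptor tyrosine phosphatases, PTPRK had 272 FOXA1 peaks per Mb, PTPRM 106 and PTPRG 77.4, while PTPRD had 0.435 and PTPRT and PTPRN2 had none. FOXA1nhaa gave the same division, with 169, 90.5 and 61.1 against 3.05, 1.79 and 0.954 per Mb. Within the IgLON family of adhesion molecules NEGR1 had 356 FOXA1 peaks per Mb, LSAMP 57.6, NTM 36.2 and OPCML 30.4. The axon guidance receptor gene ROBO1 had 143 (interval 123 to 167) and its neighbour ROBO2 31.5 (23.8 to 41.1), with 1052 kb of ROBO2 free of FOXA1 peaks. The SoxD transcription factor genes SOX6 and SOX5 had 95 and 0 FOXA1 peaks, 12 and 0 FOXA1dbd peaks, 64 and 1 FOXA1nhaa peaks, 37 and 1 FOXA1rraa peaks and 4 and 0 HNF4A peaks. The proteoglycan genes GPC6 and GPC5, which follow each other on chromosome 13, had 108 and 4.07 FOXA1 peaks per Mb. Among phosphodiesterases PDE4B had 124 and PDE4D 69.5, while PDE10A had none. The counting intervals of ROBO1 and ROBO2, SOX6 and SOX5, GPC6 and GPC5, and NEGR1 and each other IgLON gene lay apart, as did those of PTPRK, PTPRM and PTPRG from those of PTPRD, PTPRT and PTPRN2, whereas PTPRM overlapped PTPRG and NTM overlapped LSAMP and OPCML.

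**Figure D4:**
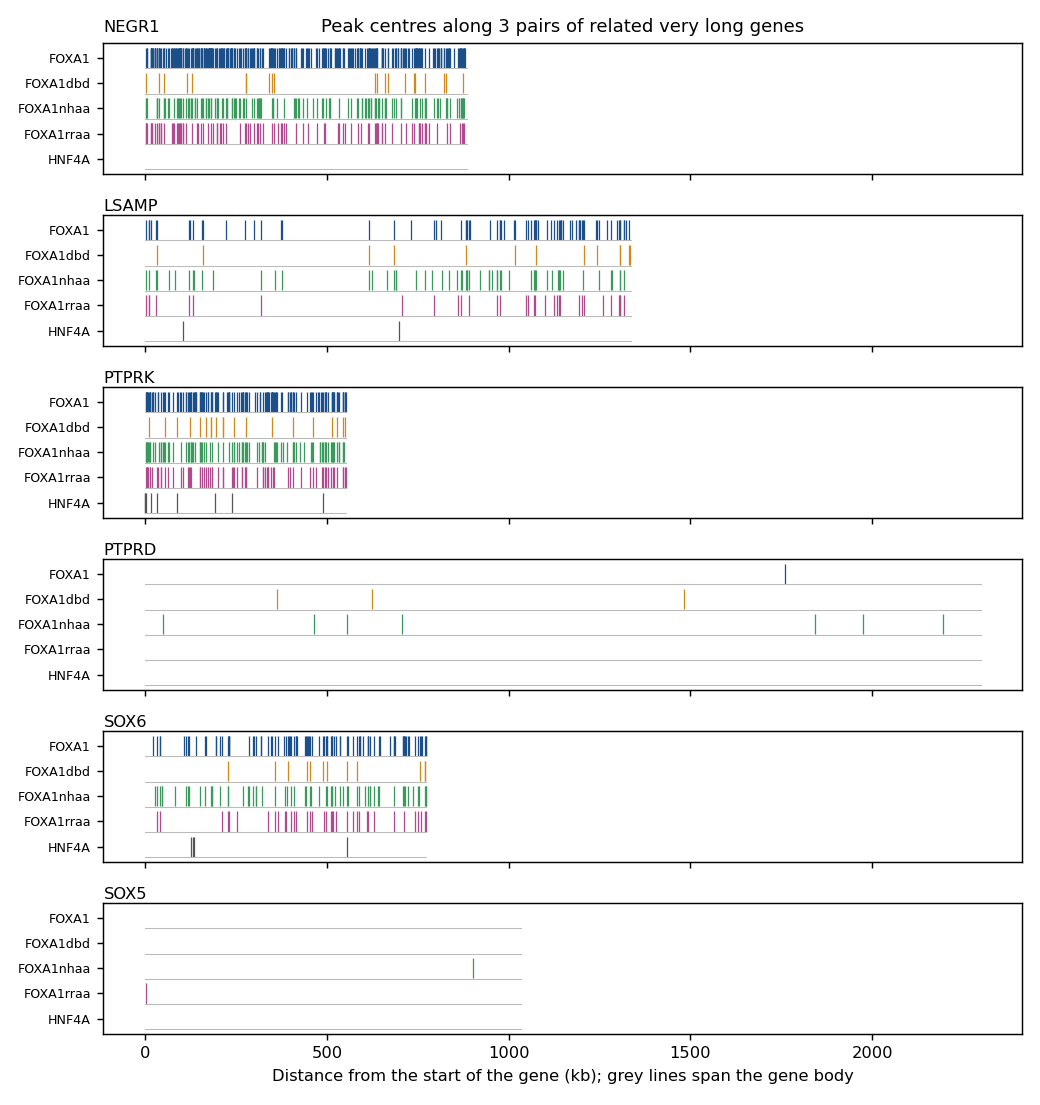
Centres of peaks of the 5 lists along NEGR1 and LSAMP, PTPRK and PTPRD, and SOX6 and SOX5, by distance from the start of the gene in kb, with grey lines spanning each body. FOXA1 peaks run along the whole of NEGR1 and PTPRK, are unevenly placed in LSAMP, and are 1 in PTPRD and 0 in SOX5.

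Few very long genes were rich in HNF4A, and the highest of them was poor in FOXA1. GSE1 (chr16:85203131-85709810), linked to a histone deacetylase complex, held 5 FOXA1, 2 FOXA1dbd, 3 FOXA1nhaa, 2 FOXA1rraa and 27 HNF4A peaks. Its HNF4A density of 53.3 per Mb (35.1 to 77.5) was the highest of the class while its FOXA1 density of 9.87 was more than 2-fold below the autosomal one, and its GC content of 56.6% was also the highest. SH3RF3, a scaffold and ubiquitin ligase, followed with 42.7 HNF4A peaks per Mb and LPP with 39.3. Of the 13 genes at least 2-fold above the HNF4A autosomal density, 4 (30.8%) were also 2-fold above for FOXA1, namely DLC1, GLIS3, LPP and SEMA5A, against 18.2% of all very long genes, and 2 (15.4%) were 2-fold below for FOXA1, GSE1 and the synapsin gene SYN3, against 43.3%. RUNX1, a transcription factor of blood formation, combined 29.6 HNF4A peaks per Mb with 89.6 for FOXA1. Of the 56 genes 2-fold above for FOXA1, 20 (35.7%) were 2-fold below for HNF4A, against 65.1% of all very long genes, among them NEGR1, DPYD and SUPT3H, which had 88 FOXA1 peaks and no HNF4A peak.

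Across the 307 genes the FOXA1 density ranked genes much as the other FOXA1 construct lists did, with a Spearman rank correlation of 0.93 for FOXA1dbd, 0.98 for FOXA1nhaa and 0.98 for FOXA1rraa, the last with the shared rows described above. With HNF4A it was 0.61. These values are descriptions: the lists share cells, antibody and mappable sequence, and the FOXA1 constructs share rows. HNF4A density went with GC content at 0.47, while FOXA1 density had -0.11 with GC content and -0.18 with gene length. Scaled to each list's autosomal density, the FOXA1nhaa to FOXA1 ratio was highest in the fragile-site gene FHIT (3.07, from 21 and 10 peaks), in ZFPM2, a cofactor of GATA proteins (2.82, from 27 and 14), and in MALRD1 (2.44, from 15 and 9), all 3 with few FOXA1 peaks. It was lowest in NEGR1 (0.639), AGAP1, a GTPase-activating protein (0.665), and SUPT3H (0.682).

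FOXA1 peaks in very long genes were overlapped by FOXA1dbd and HNF4A somewhat less often than FOXA1 peaks elsewhere, and for FOXA1nhaa the interval of the difference included 0. FOXA1nhaa peaks overlapped 39.7% of the 12861 FOXA1 peaks in very long genes and 40.1% of the other autosomal ones, a difference of -0.475 percentage points (Newcombe interval -1.36 to 0.412). FOXA1dbd overlapped 16.7% against 17.6%, a difference of -0.899 (-1.56 to -0.215). HNF4A overlapped 1.22% against 1.74%, a difference of -0.519 (-0.709 to -0.304). Set against FOXA1 peaks in other protein-coding bodies only, a comparison added after seeing the data, FOXA1nhaa differed by -3.01 percentage points (interval -3.92 to -2.10), FOXA1rraa by -2.94, HNF4A by -0.477, and FOXA1dbd by 0.0363 (-0.644 to 0.735). The FOXA1rraa overlap, 39.2% against 40.2%, comes from the shared rows alone, since none of its own rows touched a FOXA1 peak. Seen from the variants, 45.9% of the FOXA1nhaa peaks in very long genes lay outside FOXA1 peaks, against 41.1% elsewhere, a difference of 4.81 points (3.75 to 5.86). For FOXA1dbd the shares were 5.46% and 3.67%, a difference of 1.79 points (0.907 to 2.81). HNF4A went the other way: 89.2% of its peaks in very long genes lay outside FOXA1 peaks, against 93.3% elsewhere. The difference was -4.12 points (-5.83 to -2.60). Thus HNF4A peaks overlapped FOXA1 peaks more often there than elsewhere, while the share of FOXA1 peaks overlapped by HNF4A was lower.

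Most peaks of very long genes were intronic. Of the FOXA1 peak centres in them, 93.6% lay neither in an exon nor within 1 kb of an annotated start, against 80.6% in other protein-coding bodies, and 4.36% lay within 1 kb of a start, against 11.7%. For HNF4A these shares were 83.4% against 48.6% and 14.6% against 46.4%. Exons take 2.26% of the sequence of very long genes and 11.1% of that of other bodies, so the backgrounds of these shares differ too. FOXA1 density varied along the body. With each body cut into 10 equal segments from 5′ to 3′, it was 49.8 per Mb in the first segment. It was lowest in the second at 44.7 (42.1 to 47.3) and highest in the last at 55.3 (52.5 to 58.3). HNF4A had 8.04 per Mb in the first segment, 4.22 in the fifth and 7.69 in the last. Within 1 kb downstream of the start of the gene record HNF4A reached 176 peaks per Mb from 54 peaks (132 to 230), and FOXA1 32.6 from 10 peaks (15.6 to 59.9). From 1 to 10 kb FOXA1 stood at 72.0 per Mb (62.4 to 82.8) and HNF4A at 16.3. Beyond 500 kb FOXA1 stood at 47.8 (46.4 to 49.1) and HNF4A at 5.09.

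The starts themselves gave a contrast between the factors. A FOXA1 peak centre lay within 1 kb of any annotated start in 134 of the 307 genes (43.6%, Wilson interval 38.2 to 49.2), against 24.9% of the other autosomal protein-coding genes, but very long genes have a median of 11 annotated starts and the others 5. Counted per start, 11.3% of 4162 starts of very long genes and 11.02% of the others had a FOXA1 peak, and at the start of the gene record alone the shares of genes were 5.86% and 7.63%. FOXA1nhaa had 10.1% per start against 7.36%, and FOXA1dbd 2.96% against 2.36%. For HNF4A every way of counting was lower in very long genes: 38.4% against 49.0% of genes by any start, 21.8% against 40.2% by the gene record, and 12.6% against 34.6% per start.

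Forkhead cores were denser in very long genes than in any shorter length class. The bodies of very long genes held 114392 cores, 449 per Mb, more than the 418 per Mb of genes of 250 to 500 kb, the 390 of genes of 100 to 250 kb and the 409 of sequence outside protein-coding bodies. Only 18.0% of FOXA1 peaks in very long genes held such a core in their central 200 bp. Whether the number of cores bears on FOXA1 density was not tested. A FOXA1 peak covered 3.68% of the cores in very long genes (Wilson interval 3.57 to 3.79), 6.72% at 250 to 500 kb, 8.88% at 100 to 250 kb and 2.76% outside protein-coding bodies. FOXA1nhaa covered 2.36%, 4.17%, 5.22% and 1.73% in the same order, and FOXA1dbd 0.591%, 1.07%, 1.41% and 0.566%. The 41 genes without a FOXA1 peak held 18258 cores at 480 per Mb, close to the 495 per Mb of the 56 genes with 2-fold higher FOXA1 density. CSMD1 alone had 1027 cores with none under a FOXA1 peak, PTPRD had 1 of 1263, and NEGR1 had 142 of 505. Over the 307 genes the rank correlation of cores per Mb with FOXA1 density was 0.13, and that of cores with GC content was -0.94, since the cores are rich in A and T.

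**Figure D5:**
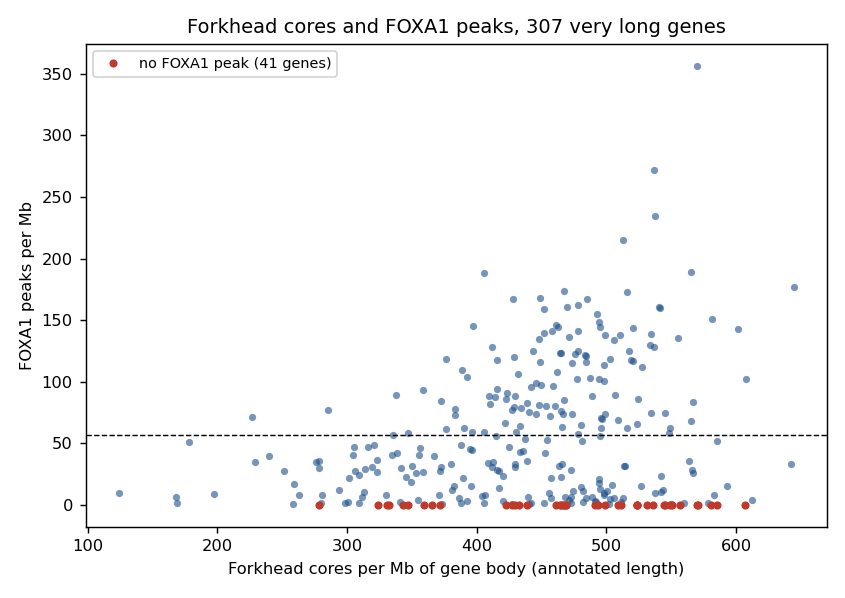
FOXA1 peaks per Mb against forkhead cores per Mb of annotated length for each very long gene, with the 41 genes that have no FOXA1 peak in red and a dashed line at the autosomal density of 57.1. Genes without a FOXA1 peak spread over most of the range of core content.

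For the FOXA1 constructs, the intervals of the difference in core content between peaks in these genes and peaks elsewhere included 0. Of FOXA1 peaks in very long genes 18.0% held a forkhead core within their central 200 bp, and so did 18.2% of the others, a difference of -0.171 points (-0.857 to 0.532). The shares were 13.6% in both for FOXA1nhaa, 21.2% against 22.2% for FOXA1dbd and 19.99% against 20.03% for FOXA1rraa. Of HNF4A peaks 4.46% held a forkhead core against 3.20% elsewhere, a difference of 1.26 points (0.295 to 2.46), which was 0.700 (-0.391 to 2.06) over peaks farther than 1 kb from a start. The HNF4 core was in 1.10% of HNF4A peaks in very long genes and in 0.981% of the others. Shares expected by chance were not computed. Forkhead cores stood at 449 per Mb in very long genes and at 204 to 418 per Mb in the shorter length classes. Like shares of peaks with a forkhead core therefore need not mean like enrichment over background.

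The surroundings of the genes varied with their own density. In the 500 kb on either side, the median FOXA1 density was 12 peaks per Mb for the 41 genes without a peak, 35 for all 133 genes 2-fold below, 70.1 for the 118 genes in between and 84 for the 56 genes 2-fold above. Over all 307 genes the rank correlation between a gene's FOXA1 density and that of its flanks was 0.58, and neighbouring genes can share a flank. Of the genes without a FOXA1 peak, CSMD1, CSMD3, CADM2 and GABRG3 had none in their flanks either, whereas the flanks of ATP8A2 had 89 FOXA1 peaks per Mb. ROBO1, with 143 per Mb in its body, had 32 in its flanks.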

How the data were processed

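Peak lists of 5 constructs, each from cells with 2 ChIP and 2 input libraries, were analysed. The submitters' processing notes name Bowtie2 2.3.4.1, Picard, GATK 4.2.6.0, bedtools 2.27.1, MACS2 2.2.7.1, deepTools 3.5.0 and the hg19 build, with no role given, and whether the lists pool libraries is not given in the sources used here. The deposited FOXA1 list gives each peak a score. The lists the authors deposited for the other constructs give a score, a fold enrichment ratio, a −log10 p-value, a −log10 q-value and a summit offset. All deposited rows were used, the lowest score being 20. Depth is unknown, so densities are compared only within a list.

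Members and gene lists were chosen with earlier results of these data known. A peak was counted in a gene when they shared 1 bp, per Mb of known bases, on chromosomes 1 to 22 of GRCh37, with gene bodies, exons and starts from GENCODE v44lift37. Calls used a fold of 2. Genes named were the 5 longest, the 5 highest and lowest in FOXA1 and 3 in each other list, the extremes of the FOXA1nhaa ratio (genes with at least 20 peaks), of FOXA1-free stretches and of each gene list, the neighbours of the 500 kb limit and the genes of the top peaks, with the related pairs, the small classes and the genes of the gene lists added after their values were seen. A few genes that this rule or these lists hold are not reported here by name. Intervals are exact Poisson, Wilson and Newcombe at 95%. Python 3.11.15, numpy 2.4.6, pandas 2.3.3 and scipy 1.17.1 were used, and the counting was tested on simulated data. The alternatives tried changed the length limit, the overlap rule, the score, the start window, the core window and the treatment of shared rows.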

Additional observations from a re-analysis of the deposited data

How the results depend on the processing

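No paired analysis was possible because there is 1 full peak list per construct, the down-sampled FOXA1 list (0.873 and 0.561 against the 2 references) being drawn from the full one, which also leaves no replicate to drop. Of the alternatives, 95 kept their value within counting error or 1.5 times the count, 58 moved and 6 turned direction, while 2 more, differences whose interval included 0, changed sign: the FOXA1nhaa overlap given last and the FOXA1nhaa core share, -0.532 points in the central 100 bp. In the order FOXA1, FOXA1dbd, FOXA1nhaa, FOXA1rraa and HNF4A, the ratio to all autosomes over genes of 300 kb or more was 1.10, 1.07, 1.16, 1.13 (these 4 turned) and 0.534, and over genes of 1 Mb or more 0.589, 0.567, 0.667, 0.570 and 0.192. By annotated length it was 0.948, 0.916, 1.02 (turned), 0.941 and 0.435. The ratio to other gene bodies was 0.686, 0.723, 0.767, 0.695 and 0.273 at 300 kb, and 0.394, 0.406, 0.459, 0.375 and 0.123 at 1 Mb. Over the top 50% of peaks by score, FOXA1 had 0.860 and 0.528 against the 2 references and FOXA1nhaa 0.919 and 0.592, and HNF4A had 0.219 against other bodies. Without exons and 1 kb around starts, HNF4A had 0.542 and 0.351, and FOXA1 0.553 against other bodies. FOXA1rraa without FOXA1 rows had 0.531 against other bodies, and without rows shared with any construct, an alternative chosen after seeing the data, 0.938 and 0.721. Among the 67 genes of 1 Mb or more, 9, 3, 9, 9 and 1 were 2-fold above and 40, 39, 37, 40 and 58 below, shares of 59.7%, 58.2%, 55.2%, 59.7% and 86.6% below. At a fold of 1.5, FOXA1dbd had 80 genes above, FOXA1nhaa 92, FOXA1rraa 84 and HNF4A 21. Starts within 2.5 kb of a peak were found in 57.7%, 27.7%, 55.0% and 42.3% of genes for the FOXA1 constructs, and by the gene record alone in 5.86%, 3.26%, 6.84%, 3.26% and, for HNF4A, 21.8%. The difference in overlap over top peaks was 0.417 points for FOXA1nhaa (from -0.475), 0.992 for FOXA1rraa (turned, from -1.03) and -0.211 for HNF4A, for HNF4A -0.269 with 50% of the shorter peak shared, and 0 for FOXA1rraa without shared rows, by the make-up of that list. The cause of the other moves was not tested. With depth unknown, a gene without a peak may hold binding below the lists' threshold.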
